A study of Mus musculus with 9 samples.

Results

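The genes described here encode the machinery that brings proteins into mitochondria and folds them there. They were chosen by name: every protein-coding mouse gene whose symbol starts with Timm or Tomm, together with 18 named genes for the import motor, the disulfide relay, the outer membrane assembly machinery, the processing peptidase and the matrix chaperones and proteases. The rule gave 44 genes, and all 44 were among the 47729 gene identifiers in the count files. Of these, 41 passed the filter on low counts and 3 did not (Tomm6, Tomm20l and Timm8a2). RNA was sequenced from the dissected midbrain of C57/Bl6 mice at 180 days, in 9 libraries of 3 genotypes with 3 libraries each. All mice, controls included, carried 1 Pitx3-Cre allele and Rosa-lox-stop-lox-Yfp, and they differed in Dot1l, which was intact in Dot1l(+/+), floxed on 1 allele in Dot1l(fl/+) and floxed on both in Dot1l(fl/fl). Pitx3 drives Cre in midbrain dopamine neurons, the tissue of several mice was pooled for each library, and the dissected tissue also held cells without Cre. The label of every library gives dissection at 180 days, while the text on the series as a whole speaks of sorted embryonic cells; the labels were followed.

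Nearly all mitochondrial proteins are made in the cytosol and enter through the TOM complex of the outer membrane. From there, TIM23 and its motor pull proteins with a presequence into the matrix, TIM22 inserts carriers into the inner membrane, small TIM chaperones escort hydrophobic proteins across the intermembrane space, the disulfide relay traps cysteine-rich proteins there, and SAM inserts barrel-shaped proteins into the outer membrane. In the matrix the presequence is removed by the processing peptidase, the protein is folded by Hsp60 and its partners, and damaged proteins are degraded by ClpXP and Lon. Dot1l encodes the methyltransferase for lysine 79 of histone H3, and the comparison asks how the transcripts of this machinery stood when 1 or both alleles were floxed in dopamine neurons.

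Library totals ran from 16422135 counts in Dot1l(fl/fl) 3 to 28403218 in Dot1l(fl/+) 2, and a level below is a CPM value, a count scaled to the library size with TMM factors. Dot1l itself was at 85.2, 80.2 and 85.1 CPM in the controls, at 84.2, 60.6 and 75.6 with 1 floxed allele and at 82.1, 73.9 and 82.9 with both. These counts cover the exons outside the floxed one as well and do not measure its loss. The 12 dopamine neuron markers summed to 752 to 842 CPM in the controls, 608 to 757 in Dot1l(fl/+) and 594 to 623 in Dot1l(fl/fl), with a negative fold change in 11 of 12 and 12 of 12. At an unadjusted p under 0.05, 4 of them were lower with 1 floxed allele (4.09% of all genes) and 10 with both (1.72%). With 1 floxed allele, 3 of 8 oligodendrocyte and 1 of 7 astrocyte markers were higher (4.3%). So were 3 of 3 choroid plexus and 2 of 2 tested hypothalamic markers. Of the 8 oligodendrocyte markers, 3 had a negative fold change there, and 1 of 4 blood markers was lower. With both alleles floxed, 2 of 7 microglia and 1 of 4 cortex and hippocampus markers were higher (2.21%). There, 1 of 3 choroid plexus markers was lower. The 3 choroid plexus markers summed to 52.6 to 134 CPM in the controls, 94.6 to 546 in Dot1l(fl/+) and 26.6 to 34.8 in Dot1l(fl/fl), and the 5 hypothalamic markers to at most 8.37, 123 and 2.61 CPM. None of the 11 marker lists held a gene with a 0 in all libraries, and the part of tissue makeup in the results below was not tested. In such bulk samples, fewer cells of a type and less RNA per cell cannot be told apart.

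The small TIM chaperones share a known sequence feature that the naming rule did not use. The search below was set for this feature, so its presence in the family is no result of these data. Their proteins carry a pair of cysteine motifs, each of 2 cysteines with 3 residues between them, which the disulfide relay oxidises during import. In the coding sequences of the GENCODE M21 transcripts, 2 such motifs set 11 to 17 codons apart were found in 7 of the 44 members, namely all 6 small TIM chaperones and Timm10b of the TIM22 complex, against 445 of 21590 coding genes (2.06%). The stretch from the first to the last cysteine codon is given for the 5 small TIM chaperones that passed the filter, with the cysteine codons (TGT or TGC) in capitals.
Timm8b: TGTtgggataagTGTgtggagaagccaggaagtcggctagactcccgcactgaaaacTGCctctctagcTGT
Timm8a1: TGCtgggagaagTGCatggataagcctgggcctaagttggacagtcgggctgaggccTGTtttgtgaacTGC
Timm13: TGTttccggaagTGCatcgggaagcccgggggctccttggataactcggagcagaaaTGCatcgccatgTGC
Timm9: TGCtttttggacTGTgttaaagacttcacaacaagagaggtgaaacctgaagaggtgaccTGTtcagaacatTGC
Timm10: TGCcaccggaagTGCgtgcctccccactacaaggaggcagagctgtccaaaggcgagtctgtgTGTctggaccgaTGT
In Timm8b, Timm8a1 and Timm13 there are 14 codons between the paired motifs, in Timm9 15 and in Timm10 16.

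Per kilobase of summed exon length, the levels of the import genes spread widely. The highest were Timm8b and Tomm20, both at 67.7 CPM per kilobase over the 9 libraries, followed by Hspa9 at 61.3, Trap1 at 30.7 and Hspd1 at 29.8. The plot of levels shows a long middle range from Clpp (24.9) to Timm21 (2.49), and then a step down to Timm8a1 (0.611), Timm23 (0.592) and Pam16 (0.427). Tomm6, with 0 to 5 counts in a library, Timm8a2, with 0 to 3, and Tomm20l, with 0 to 2, lay at the bottom. Timm8b and Tomm20 did not differ beyond the spread of their libraries. Summed over all 44 genes, the level was 2156 to 2210 CPM in the controls, 2189 to 2294 in Dot1l(fl/+) and 2177 to 2248 in Dot1l(fl/fl), ranges that overlapped.

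**Figure D1:**
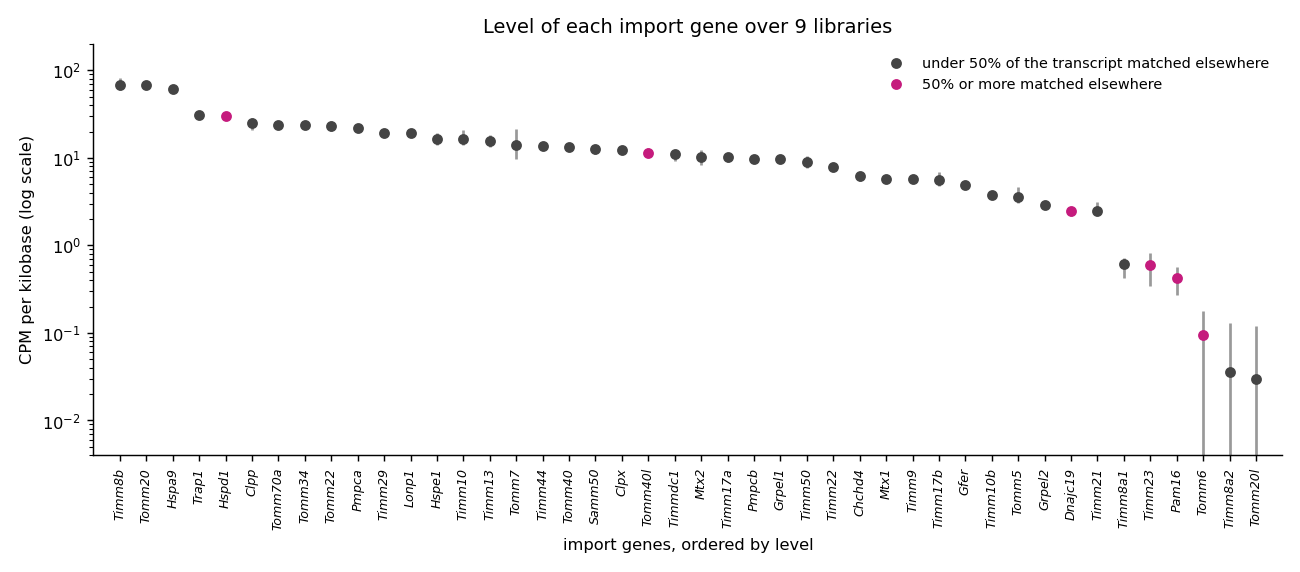
Level of each of the 44 import genes in CPM per kilobase of summed exon length (log axis); points are means over 9 libraries, vertical lines run from the lowest to the highest library (to the foot of the axis where a library had 0 counts), and purple marks genes with 50% or more of their transcript matched by another gene. Timm8b and Tomm20 lead at 67.7, and Timm23 (0.592) and Pam16 (0.427), both purple, sit near the low end.

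The very low values of 2 essential subunits have a sequence beside them. The coding sequence of Timm23, which forms the channel of the inner membrane, is identical over 627 of 627 bases to that of Gm10273 on chromosome 10, and 95.6% of its transcript was matched by other genes at 97% identity or more. Gm10273 had 0 counts in every library and Timm23 a mean of 26.0. Pam16, a regulator of the import motor, is identical over 375 of 375 coding bases to Gm9803, which had a mean of 222 counts against 24.8 for Pam16. Hspd1 shares 1699 of 1716 aligned coding bases with the pseudogene Hspd1-ps3 on chromosome 11, which had a mean of 1996 counts against 1909 for Hspd1. The first 90 coding bases, the same in each member and its copy, are shown for these genes.
Timm23 and Gm10273: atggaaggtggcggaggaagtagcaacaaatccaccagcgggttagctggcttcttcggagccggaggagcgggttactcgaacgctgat
Pam16 and Gm9803: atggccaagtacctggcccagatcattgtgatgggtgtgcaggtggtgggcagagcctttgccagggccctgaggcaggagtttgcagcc
Hspd1 and Hspd1-ps3: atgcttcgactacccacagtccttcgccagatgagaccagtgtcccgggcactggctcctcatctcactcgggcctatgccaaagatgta
Reads from such stretches cannot be given to 1 gene by sequence, and how the counting treated them is not given in the sources used here, so the levels of Timm23, Pam16 and Hspd1 are uncertain. The same holds for Tomm6 (100% matched) and Dnajc19 (53.3%, a pseudogene). Tomm40l (70.5%) was matched only by Nr1i3, which overlaps it on the other strand and had a mean of 6.2 counts against 1404 for Tomm40l. The paper names a directional library kit, but the strand setting of the counting is not given. Of the 44 members, 21 overlap an exon of another gene. Against the controls, Hspd1-ps3 had a log2 fold change of 0.06 (edgeR adjusted p = 0.826) with 1 floxed allele and 0.07 (adjusted p = 0.999) with both, and Gm9803 of 0.11 (adjusted p = 0.872) and 0.13 (adjusted p = 0.999).

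With 1 floxed allele, 27 of the 41 tested import genes had a positive log2 fold change (48.9% of all genes) and 14 a negative one, with a median of 0.05 against 0.00 over all 17671 genes tested. No member passed an adjusted p of 0.05 in edgeR (lowest 0.541), nor did any other gene (0% of all genes called). At an unadjusted p under 0.05, 5 members were higher (Tomm7, Timm13, Timm8b, Tomm40l and Timm50), or 12.2% of 41 against 4.3% of all genes, and 0 were lower, against 4.09%. The libraries of Dot1l(fl/+) lay wholly above the controls in 6 members, 14.6% against 6.84% of all genes, and wholly below in 2 (Timm23 and Timm44), 4.88% against 6.47%. In Tomm40, 1 of the 6, the nearest libraries were at 61.148 and 61.145 CPM. DESeq2 on all 9 libraries called 0 members as well, with 3 genes called in all. DESeq2 on the 2 genotypes and edgeR without a filter on low counts each called 1 member, Tomm7, among 45 and 251 genes. In simulated data of this comparison, 55.3% of genes changed by 0.5 on the log2 scale and 10.6% of those changed by 0.3 passed the adjusted threshold, while 38 of the 41 members had a fold change of less than 0.25 in size.

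With both alleles floxed the balance was nearer even, with 23 members positive (50.4% of all genes) and 18 negative and a median of 0.01 against 0.00 over all genes. Again 0 members passed the adjusted threshold in edgeR, as did 0 of all genes (0%). One member, Tomm7, was higher at an unadjusted p under 0.05, 2.44% of 41 against 2.21% of all genes, and 0 were lower against 1.72%. The Dot1l(fl/fl) libraries lay wholly above the controls only in Pmpca (5.03% of all genes), and wholly below in 0 members (5.25%). Set against Dot1l(fl/+), the Dot1l(fl/fl) libraries gave 12 positive (50.5% of all genes) and 29 negative fold changes with a median of −0.04, 0 members past the adjusted threshold (0% of all genes) and 2 lower at an unadjusted p under 0.05, Tomm40 and Timm17b, 4.88% against 2.87%, with 0 higher against 3.6%. They lay wholly above those of Dot1l(fl/+) in Dnajc19 and Hspa9 (5.98% of all genes) and wholly below in Chchd4, Samm50, Timm17a and Tomm40 (5.14%). The 3 comparisons share libraries.

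**Figure D2:**
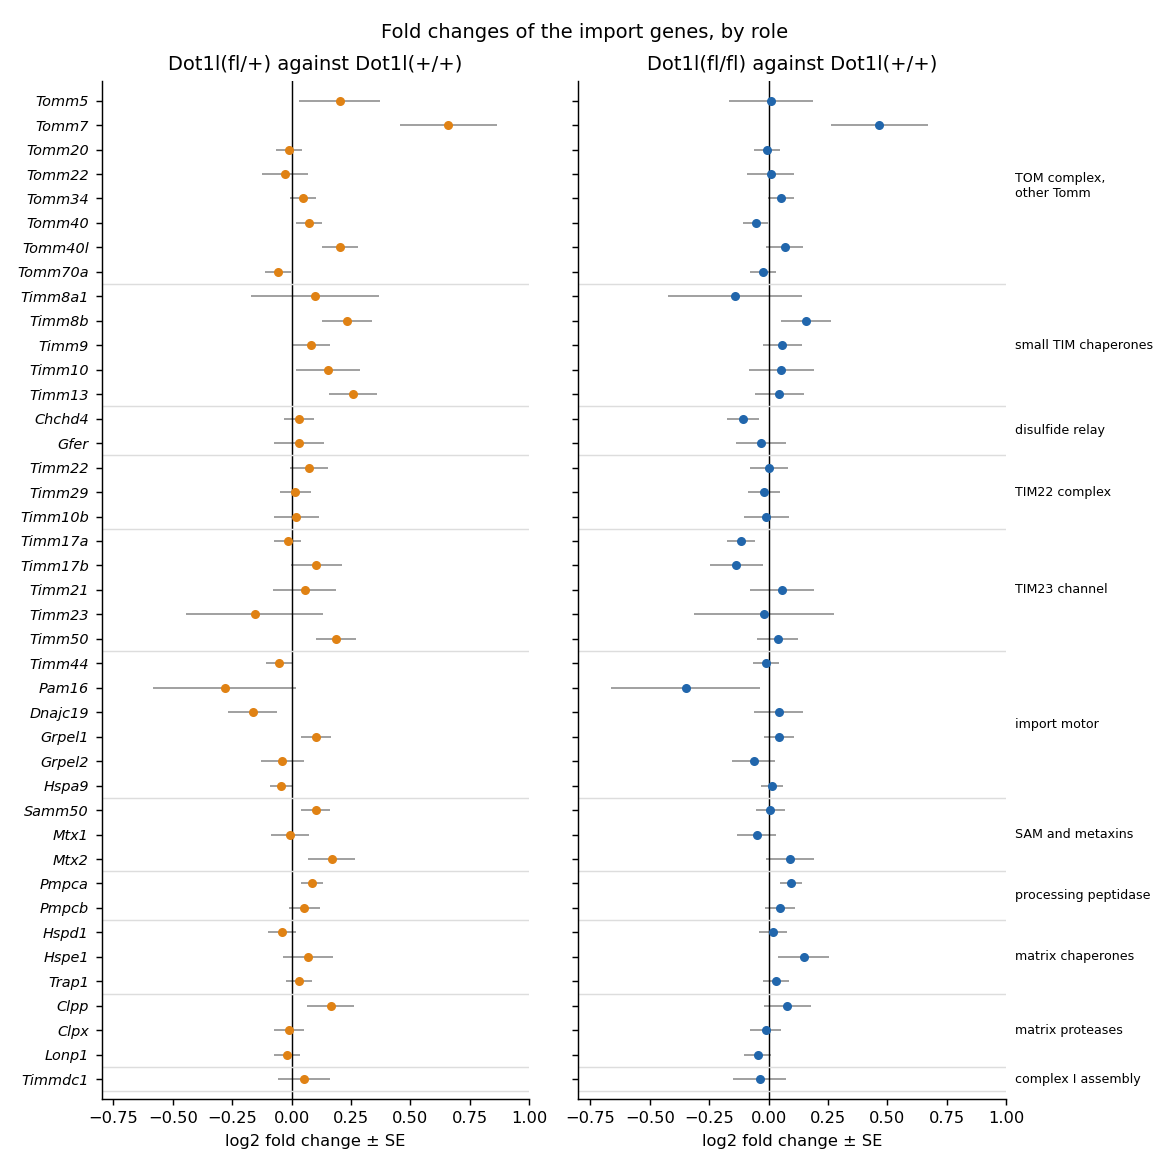
Log2 fold change of the 41 tested import genes with its SE, by role, in Dot1l(fl/+) (left) and Dot1l(fl/fl) (right) against Dot1l(+/+). Most points lie within 0.25 of 0, Tomm7 stands apart at 0.66 and 0.47, and all 5 small TIM chaperones lie right of 0 on the left panel. In that comparison 48.9% of all genes were positive.

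Among the TOM genes, 8 of 10 were tested and 5 of 8 had a positive fold change in each floxed group. Tomm7 (ENSMUSG00000028998, chr5:23838944-23844161, GRCm38), a small subunit that tunes the stability of the TOM complex, was at 10.8, 12.7 and 12.7 CPM in the controls, at 16.3, 21.3 and 19.7 with 1 floxed allele and at 11.8, 23.8 and 14.3 with both. All Dot1l(fl/+) libraries were above all controls, whereas in Dot1l(fl/fl) 1 library was as high as those and the other two lay near the controls. Against the controls it differed by 0.66 on the log2 scale with 1 floxed allele (SE 0.203, edgeR adjusted p = 0.541) and by 0.47 with both (SE 0.205, edgeR adjusted p = 0.999). Without Dot1l(fl/fl) 2 the second value was 0.10. The call on the first varied between fits: edgeR without a filter on low counts gave an adjusted p of 6.02e-06 and DESeq2 on the 6 libraries of the 2 genotypes, also with no such filter before the fit, 0.00178, while DESeq2 on all 9 libraries, again unfiltered, gave 0.954 and edgeR with the filter on the 6 libraries 0.259.

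The receptor Tomm20, which recognises presequences, had the highest CPM of the members, at 327, 322 and 351 CPM in the controls, at 336, 342 and 314 with 1 floxed allele and at 321, 339.7 and 336 with both. Its groups overlapped, and its log2 fold changes were −0.01 in both comparisons with the controls. Tomm40 (chr7:19701313-19715438), the pore, was at 60.4, 61.1 and 58.0 CPM in the controls, at 61.1, 62.2 and 65.6 with 1 floxed allele and at 59.3, 57.4 and 56.1 with both. Every Dot1l(fl/fl) library lay below every Dot1l(fl/+) library, with a log2 difference of −0.13 (SE 0.0541, edgeR adjusted p = 0.734). Tomm40l (chr1:171216011-171222514), a paralogue of the pore, was at 52.8, 57.1 and 52.5 CPM in the controls, at 54.4, 66.4 and 66.1 with 1 floxed allele and at 54.7, 59.0 and 56.5 with both. Of the Dot1l(fl/+) libraries 2 were above the controls and 1 was among them, and the log2 fold change was 0.20 (SE 0.0759, edgeR adjusted p = 0.541). The receptor Tomm70a, at 216 to 247 CPM, and Tomm22, Tomm34 and Tomm5 had fold changes of −0.06 to 0.20 in Dot1l(fl/+) and −0.03 to 0.05 in Dot1l(fl/fl).

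Of the small TIM chaperones, whose cysteine motifs are shown above, 5 of 5 tested members had a positive fold change in Dot1l(fl/+). Their median was 0.15, and 48.9% of all genes were positive. In Dot1l(fl/fl) 4 of 5 were positive (50.4% of all genes), with a median of 0.05. Timm8b, Timm8a1, Timm13 and Timm10 lay in the shortest quintile of all tested genes by exon length. All genes of that quintile had a median of 0.08 in Dot1l(fl/+). Timm13 (chr10:80899450-80900969), which works with Timm8 proteins, was at 20.3, 18.2 and 21.3 CPM in the controls, at 22.6, 24.8 and 24.3 with 1 floxed allele and at 18.3, 23.7 and 19.7 with both. The Dot1l(fl/+) libraries lay above the controls, with a log2 fold change of 0.26 (SE 0.101, edgeR adjusted p = 0.541), and the Dot1l(fl/fl) libraries overlapped them (0.04). Timm8b (chr9:50603910-50605320) was at 30.9, 32.6 and 32.5 CPM in the controls, at 34.0, 42.6 and 36.2 with 1 floxed allele and at 34.7, 41.5 and 30.7 with both. Here too the Dot1l(fl/+) libraries were the higher ones, with a fold change of 0.23 (SE 0.105, edgeR adjusted p = 0.581), and replicate 2 was the highest in both floxed groups. Without Dot1l(fl/+) replicate 2 the Timm8b fold change was 0.13 and no longer past an unadjusted p of 0.05. In a fit with a length and GC offset, Timm13 was at 0.17 and Timm8b at 0.10, also no longer past it.

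Timm10, which forms a chaperone ring with Timm9, was at 12.3, 13.4 and 12.2 CPM in the controls, at 11.5, 17 and 13.6 with 1 floxed allele and at 13.3, 14.4 and 11.5 with both. Its groups overlapped, and its fold change of 0.15 in Dot1l(fl/+) became −0.01 without replicate 2 of that group. Timm8a1, the lowest of the tested members in CPM, was at 0.946, 0.859 and 0.827 CPM in the controls, at 0.823, 0.954 and 1.03 with 1 floxed allele and at 0.600, 0.989 and 0.788 with both, which also overlapped. The disulfide relay, Chchd4 and Gfer, had fold changes of 0.03 each in Dot1l(fl/+) and of −0.11 and −0.03 in Dot1l(fl/fl). Chchd4, the oxidase that traps the small TIM proteins, was at 33.8, 33.1 and 31.7 CPM in the controls, at 33.0, 33.9 and 33.7 with 1 floxed allele and at 28.6, 31.7 and 31.2 with both. The Dot1l(fl/fl) libraries lay below those of Dot1l(fl/+) (log2 difference −0.14, edgeR adjusted p = 0.77).

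In the TIM22 complex, the 3 members had fold changes of 0.02 to 0.07 in Dot1l(fl/+) and −0.02 to 0.00 in Dot1l(fl/fl). The channel Timm22 was at 23.9, 26.1 and 23.9 CPM in the controls, at 24.7, 26.8 and 26.3 with 1 floxed allele and at 24.6, 26.7 and 22.6 with both, with all groups overlapping. In the TIM23 channel, 3 of 5 members were positive in Dot1l(fl/+) and 2 of 5 in Dot1l(fl/fl). Timm50 (chr7:28305516-28312072), the receptor of this channel, was at 23.3, 24.3 and 20.6 CPM in the controls, at 25.1, 24.7 and 27.9 with 1 floxed allele and at 22.9, 22.4 and 24.9 with both. Its Dot1l(fl/+) libraries lay just above the controls, with a log2 fold change of 0.19 (SE 0.0857, edgeR adjusted p = 0.59), which was 0.12 without Dot1l(+/+) replicate 3. Timm17b (chrX:7899357-7908351), which pairs with Timm23, was at 14.8, 14.7 and 13.6 CPM in the controls, at 13.6, 17.5 and 15.2 with 1 floxed allele and at 12.2, 14.2 and 12.7 with both. The groups overlapped, and Dot1l(fl/fl) against Dot1l(fl/+) gave −0.24 (SE 0.109, edgeR adjusted p = 0.762), or −0.14 without Dot1l(fl/+) replicate 2. Timm23 itself, uncertain for the reason above, was at 1.13, 1.07 and 1.13 CPM in the controls, at 0.901, 1.06 and 1.03 with 1 floxed allele and at 1.48, 1.11 and 0.607 with both.

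In the import motor, 1 of 6 members had a positive value in Dot1l(fl/+), with a median of −0.05, and 3 of 6 were positive in Dot1l(fl/fl) with a median of 0.00. Timm44, which ties the motor to the channel, was at 51.2, 51.6 and 50.2 CPM in the controls, at 49.4, 48.5 and 49.5 with 1 floxed allele and at 51.9, 48.8 and 51.2 with both. The Dot1l(fl/+) libraries lay just below the controls, by a log2 fold change of −0.05 (edgeR adjusted p = 0.826). Hspa9, the motor's Hsp70, was at 259, 271 and 268 CPM in the controls, at 263, 261 and 249 with 1 floxed allele and at 273, 268 and 267 with both. Its fold changes were −0.05 and 0.02, and the groups overlapped with the controls.

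Outer membrane assembly was represented by 3 genes, with fold changes of −0.01 to 0.17 in Dot1l(fl/+) and −0.05 to 0.09 in Dot1l(fl/fl). Samm50, the barrel of the SAM complex, was at 85.0, 84.8 and 72.8 CPM in the controls, at 87.1, 83.6 and 89.3 with 1 floxed allele and at 80.8, 82.0 and 80.9 with both. Control replicate 3 was the lowest of the 9, and the fold change of 0.10 in Dot1l(fl/+) was 0.03 without it. Pmpcb, the catalytic subunit of the processing peptidase, was at 49.7, 51 and 46.5 CPM in the controls, at 48.8, 51.2 and 52.8 with 1 floxed allele and at 53.0, 51.8 and 47.2 with both, with overlap. Its partner Pmpca was the one member whose libraries lay above all controls in both floxed groups, with fold changes of 0.09 and 0.09 (edgeR adjusted p = 0.634 and adjusted p = 0.999).

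The matrix chaperones had fold changes of −0.04 to 0.07 in Dot1l(fl/+) and 0.02 to 0.15 in Dot1l(fl/fl). Hspd1, the Hsp60 chamber, was at 80.8, 75.7 and 81.1 CPM in the controls, at 78.3, 73.1 and 79.8 with 1 floxed allele and at 78.9, 85.6 and 76.3 with both. Hspe1, the lid of that chamber, was at 21.1, 24.0 and 24.3 CPM in the controls, at 23.8, 28.3 and 20.8 with 1 floxed allele and at 26.2, 26.8 and 23.9 with both. The Hspe1 fold change of 0.07 in Dot1l(fl/+) was −0.06 without replicate 2 of that group and 0.17 without replicate 3. Neither gene's groups stood apart. The genes lie head to head on chromosome 1, and the promoter window of Hspe1 in RefSeq (chr1:55087898-55088197, GRCm38.p6, plus strand, 250 bases before to 50 after the start) also holds 1 of the 2 annotated start sites of Hspd1, 216 bases from that of Hspe1. It is shown because start sites of both genes lie in it, with 2 overlapping heat shock element matches in capitals.
Hspe1 promoter: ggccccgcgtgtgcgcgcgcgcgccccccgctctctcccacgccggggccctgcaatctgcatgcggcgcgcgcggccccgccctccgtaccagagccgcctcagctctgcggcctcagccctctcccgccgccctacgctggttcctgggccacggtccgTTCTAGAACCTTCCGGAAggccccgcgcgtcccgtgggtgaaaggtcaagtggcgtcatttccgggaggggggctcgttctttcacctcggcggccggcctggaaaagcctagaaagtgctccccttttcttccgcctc
The letters searched were GAA, TTC and GAA with 2 bases between each, on both strands. The 39 members with a window had 42 of them. The element was in 3 of the 42 member windows (7.14%), those of Hspe1, Timm9 and the Hspd1 start named above, and in 0.603% of all 32851 promoter windows of the same length. The Hspd1 and Hspe1 windows overlap there, so their match is the same stretch of sequence. Another motif, the ETS letters CCGGAAGT, was in 9 of 42 member windows (21.4%) and in 3.89% of all. The 4 other motifs searched in the same way (NRF1, CRE, CCAAT box and YY1) were in 2.38 to 28.6% of member windows and 1.4 to 37.4% of all. A match describes letters only. No windows were given for Grpel2, Hspa9, Timm21, Tomm40l and Tomm7.

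The matrix proteases had fold changes of −0.02 to 0.16 in Dot1l(fl/+) and −0.04 to 0.08 in Dot1l(fl/fl). Clpp, the protease barrel of ClpXP, was at 32.3, 28.6 and 25.4 CPM in the controls, at 27.8, 33.8 and 34.9 with 1 floxed allele and at 30.6, 30.3 and 30.0 with both. Its fold change of 0.16 in Dot1l(fl/+) ran from 0.08 without Dot1l(+/+) replicate 3 to 0.26 without Dot1l(fl/+) replicate 1, and was 0.07 with the offset for length and GC content. Its unfoldase Clpx was at 44.0, 43.8 and 43.4 CPM in the controls, at 42.4, 44.4 and 43.4 with 1 floxed allele and at 40.6, 42.7 and 46.9 with both. Lonp1, the Lon protease, was at 87.3, 88.1 and 80.2 CPM in the controls, at 79.4, 84.9 and 87.8 with 1 floxed allele and at 82.0, 80.4 and 85.4 with both. None of these genes set the groups apart. Timmdc1, a complex I assembly factor that carries the Timm name, had fold changes of 0.05 and −0.04.

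**Figure D3:**
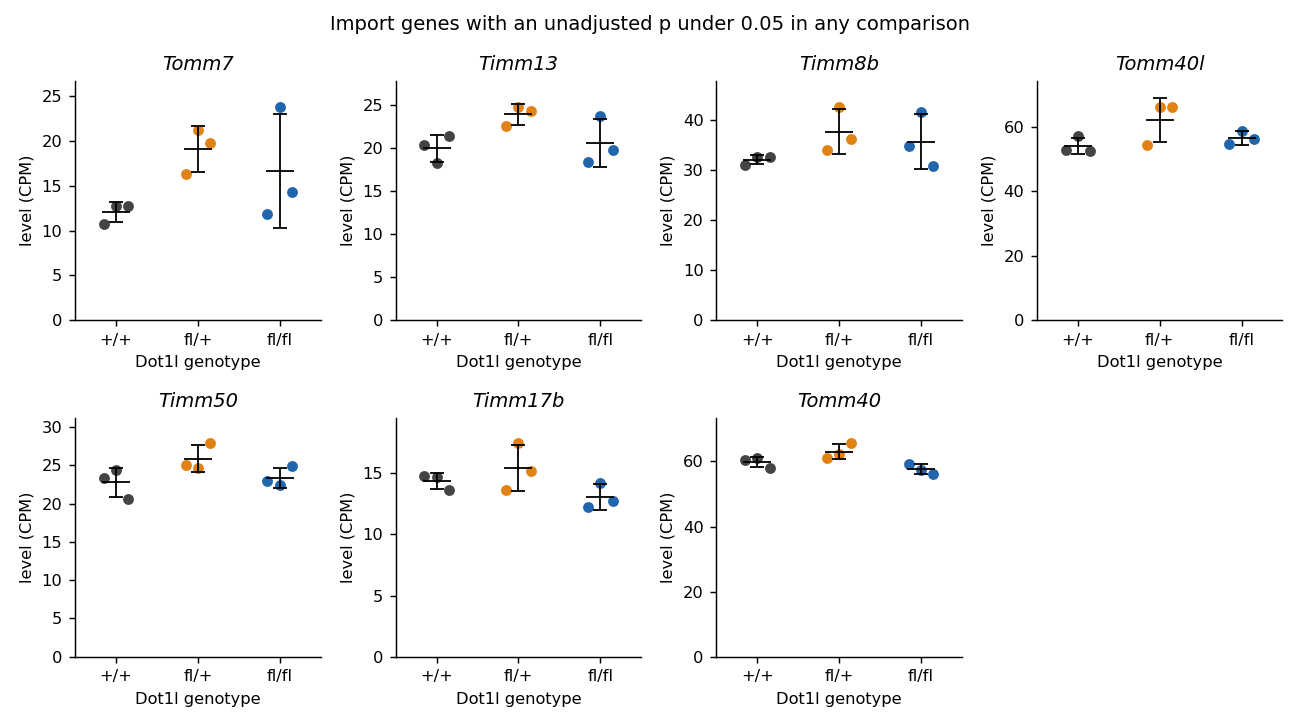
Level in CPM (axes start at 0) of the 7 import genes with an unadjusted p under 0.05 in any comparison; points are libraries, and bars are mean ± SD of 3. Dot1l(fl/+) libraries lie above the controls in Tomm7, Timm13, Timm8b and Timm50. In Tomm40 the lowest Dot1l(fl/+) library (61.148) and the highest control (61.145) cannot be told apart at this scale. Tomm7 in Dot1l(fl/fl) is spread from 11.8 to 23.8.

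Short members stood higher than long ones in Dot1l(fl/+), and so did short genes at large: of the 5 members past an unadjusted p of 0.05, Tomm7, Timm13 and Timm8b lay in the shortest quintile of all tested genes. Over the 41 members the fold change ran against summed exon length (Spearman rho −0.38 across genes, which share libraries), and over 17612 genes the rho was −0.26. In that quintile (up to 1977 bases), 9 of 11 members were positive with a median of 0.15, while all genes of that quintile had a median of 0.08. An offset for length and GC content left the median of those 11 members at 0.04 with 8 positive and that of all genes of the quintile at 0.01. Over all 41 members the median with the offset was 0.04, 30 were positive against 27 without it, and the rho went to 0.05. The members of the 2 longest quintiles moved the other way, from medians of 0.04 and −0.04 to 0.09 and 0.05. With the offset Tomm7 was at 0.61 and Tomm40l at 0.21, while Timm50, at 0.15, was no longer past an unadjusted p of 0.05, like Timm13 and Timm8b. The libraries in which short genes were high against long ones were Dot1l(fl/+) 2 (0.14 on the log2 scale) and 3 (0.12) and Dot1l(fl/fl) 2 (0.07), and the other 6 lay between −0.06 and −0.01. Dot1l(fl/+) 2 was the highest library in 14 of the 41 members, 34.1% against 16.9% of all genes. In Dot1l(fl/fl) against the controls, the rho without the offset was −0.25 over the 41 members and −0.14 over the 17612 genes. The part of this length trend in single members beyond the offset was not tested.

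**Figure D4:**
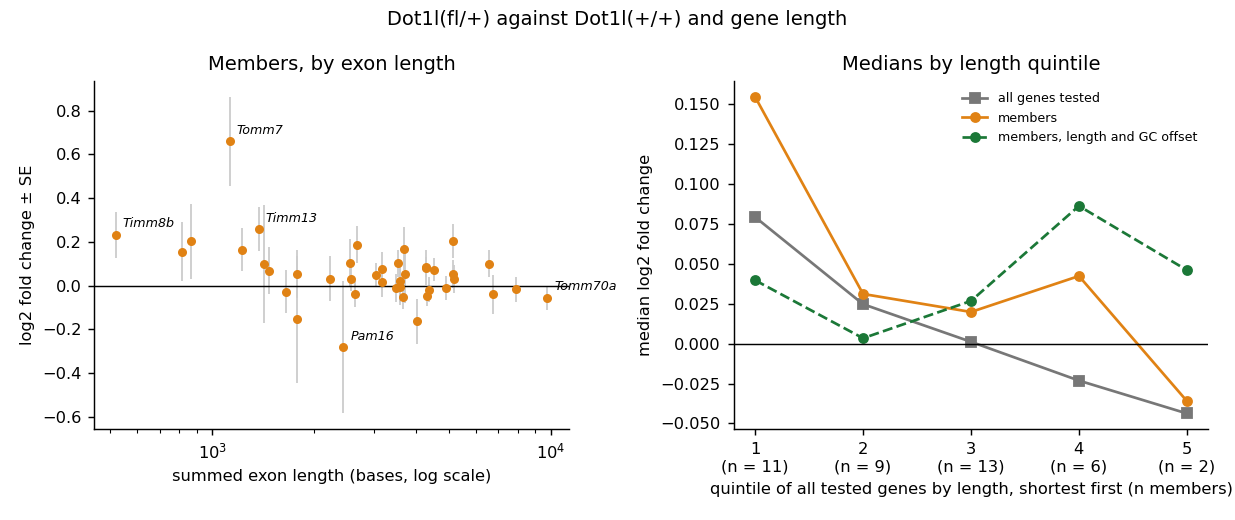
Dot1l(fl/+) against Dot1l(+/+): left, log2 fold change with SE of the 41 tested members by summed exon length (log axis); right, medians by quintile of all tested genes by length, for all genes, the members and the members with a length and GC offset. The members' median falls from 0.15 in the shortest quintile to −0.04 in the longest (2 members), and with the offset the shortest quintile is at 0.04.

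Of 31 further genes of import and quality control, all were tested and 0 passed the adjusted threshold in any comparison. In Dot1l(fl/+) 22 were positive (48.9% of all genes), 5 were higher at an unadjusted edgeR p under 0.05 (4.3% of all genes) and 2 lower (4.09%). Mtch1, an insertase of the outer membrane, had the lowest p (log2 fold change 0.23, edgeR adjusted p = 0.54), with 0.11 in Dot1l(fl/fl). Among the others, Apool and Chchd6 of the cristae junction complex had 0.46 and 0.24, Romo1 of the inner membrane 0.40, the peptidase Mipep 0.17, Mtx3 −0.16 and the prohibitin Phb −0.21. In Dot1l(fl/fl) 24 were positive (50.4% of all genes), 3 were higher at that threshold (Mtch1, Immp2l and Apoo, against 2.21% of all genes) and 0 lower (1.72%). Beside these, the median in Dot1l(fl/+) was 0.09 over 77 mitochondrial ribosome genes and 0.17 over 91 nuclear genes of the respiratory chain. At an unadjusted p under 0.05, 9 and 39 of them were higher (4.3% of all genes) and 0 and 2 lower (4.09%). In Dot1l(fl/fl) the medians were 0.04 and 0.08, with 3 and 13 higher (2.21%) and 0 and 1 lower (1.72%). The difference between these lists and the import genes was not tested.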

How the data were processed

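The authors deposited raw counts per Ensembl gene for each library. According to the submitters' processing notes, bcl2fastq 2.17, Trimmomatic 0.30 and DESeq2 1.10.1 were used with GRCm38.p4; the aligner, the counting tool and its strand setting are not given in the sources used here. The deposited files of the authors' own comparisons (fold changes and p-values) were not used. Symbols and lengths came from GENCODE M21, which held 47310 of the 47729 identifiers. Genes were kept with filterByExpr and tested with the quasi-likelihood test of edgeR 4.0.16 (R 4.3.3) in 1 fit of 9 libraries by genotype, with TMM and Benjamini-Hochberg adjustment, after a test on simulated data. Nothing in the labels says that replicates were separate animals, so p-values measure the spread between pools. Copies were sought with BLAST+ 2.17.0 (97% identity over at least 75 bases). Alternatives were DESeq2 1.42.0, other filters and size factors, 2 genotypes only, a length and GC offset, a replicate block and each library left out. Every member was accounted for by role; values per library were given for members with an unadjusted p under 0.05, the highest and lowest by level, and 16 anchors, and Pmpca was added after its values were seen. The members and lists were chosen with earlier results of these data known.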

Additional observations from a re-analysis of the deposited data

How the results depend on the processing

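The adjusted count of 0 import genes became 1 (Tomm7) for Dot1l(fl/+) against Dot1l(+/+) with DESeq2 on 2 genotypes, where 45 genes in all passed, and 1 (Tomm7) without a filter on low counts, where 251 passed; without a filter Tomm7 was also the 1 call for Dot1l(fl/fl) against Dot1l(+/+), of 118 genes. It remained 0 in every fit that left out a library (0 to 0 in each comparison). At an unadjusted p under 0.05, the 1 member for Dot1l(fl/fl) against Dot1l(+/+) became 0 with DESeq2 on all 9 libraries (1.74% of all genes). It became 0 on 2 genotypes as well (2.12%, against 3.93% in the main fit). The 2 for Dot1l(fl/fl) against Dot1l(fl/+) became 1 and 0 with these (3.31% and 2.39%, against 6.48%). They became 0 with edgeR on 2 genotypes (5.25%) and 4 with at least 10 counts in every library (6.64%). The cause was not tested. Leaving out a library moved the count for Dot1l(fl/+) against Dot1l(+/+) from 5 to between 2 and 7. The 2 came without Dot1l(fl/+) replicate 2 or 3, where 10.2% and 5.65% of all genes passed. The 7 came without Dot1l(fl/+) replicate 1 (12.5%, against 8.39% with all libraries). With any 1 control left out it was 3 (5.45 to 7.19%). For Dot1l(fl/fl) against Dot1l(+/+), the count went from 1 to between 0 and 3. The 0 came without Dot1l(fl/fl) replicate 2 (2.13%) or Dot1l(+/+) replicate 2 (3.81%), and the 3 without Dot1l(fl/fl) replicate 3 (5.26%). For Dot1l(fl/fl) against Dot1l(fl/+), it went from 2 to between 0 and 4. Without Dot1l(fl/+) replicate 3 it was 0 (4.9%), and without replicate 1 it was 4 (9.37%). The medians ran from 0.02 to 0.09, −0.02 to 0.02 and −0.07 to −0.01. Without the members matched elsewhere, a choice made after seeing the data, the medians were 0.05, 0.01 and −0.05. Deviations of same-numbered libraries correlated at 0.0222 to 0.317, each positive but not all over 0.1, and not every library correlated best with its own number. Mice were pooled as matched sets of the 3 genotypes, but the labels do not say that the numbers mark these sets, so the numbers were not taken as pairs; with the replicate block the unadjusted counts were 4, 1 and 3 (9.34%, 4.43% and 7.12% of all genes), and with the offset and the replicate block 3, 1 and 5 (7.67%, 4.27% and 6.36%). In simulated data with these depths and 3 libraries a group, 10.6% of genes changed by 0.3 on the log2 scale were recovered.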
